A study of Rattus norvegicus albus with 14 samples.

Results

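A set of 10 genes for enzymes that build fatty acids and triglycerides was followed in cultured rat heart muscle cells exposed to rosiglitazone. The members are Acly, Acaca, Acacb, Fasn, Elovl5, Elovl6, Gpam, Lpin1, Dgat1 and Dgat2, taken by gene symbol, 1 entry per Ensembl gene. They make up 10 of the 32545 genes in the tables, and all 10 had an entry. Of these, 9 passed the filter on low counts and were tested, and Elovl6 was not.

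The cells were neonatal rat ventricular myocytes, heart muscle cells from 1-day-old Sprague-Dawley rats. They were preplated to remove fibroblasts, pooled, plated on fibronectin and kept in a serum-free medium with insulin, transferrin and selenium. Rosiglitazone, an insulin-sensitizing drug and agonist of PPARγ (the nuclear receptor encoded by Pparg), was given at 10 µmol/L in 1% DMSO for 0.5, 24 or 48 h, with 2 libraries at each time. The control group had 1% DMSO for 0.5 h and 1 library. Every group therefore carried DMSO, and vehicle controls of 24 and 48 h were not analysed here, so time with the drug and time in culture cannot be told apart. The labels do not say whether the libraries of a group are separate cultures, and p-values reflect only how far these libraries differ, possibly for technical reasons.

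Fatty acids are built in the cytosol. ATP citrate lyase (Acly) supplies acetyl-CoA, acetyl-CoA carboxylase makes malonyl-CoA from it, and fatty acid synthase (Fasn) joins these units into palmitate, which ELOVL elongases lengthen. Triglycerides are then assembled by adding acyl chains to glycerol phosphate, removing the phosphate and adding a last acyl chain. The adult heart burns mostly fatty acids that it takes up and makes little fat itself. In heart muscle malonyl-CoA is best known as the brake on fatty acid entry into mitochondria.

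The 14 deposited samples are 7 libraries, each given as 2 splits that differed by no more than the sampling noise (smallest chi-square p of the 7 pairs 0.1119), so the splits were summed and counted as 1 sample. Libraries held 10886559 to 28074620 counts, the shallowest being 48 h replicate 2. Levels are given as CPM, read counts relative to the TMM-scaled library size. CPM depend on transcript length, so levels are not compared between members or pathway genes. Sums over markers weight each marker by its CPM, and the text says which markers hold most of some sums. Heart muscle markers, 15 with an entry of 16 listed, were detected in every library, but their sum ran from 17445 CPM at 0.5 h to 411 CPM in 48 h replicate 1. The libraries of 24 h stood apart in this sum, with 14495 CPM in replicate 1 and 3370 CPM in replicate 2. Single markers went both ways in 24 h replicate 1. Tnni3 (945 CPM) and Myl2 (1013 CPM) were above both 0.5 h rosiglitazone libraries (at most 390 and 543 CPM). Myh6 (385 CPM) and Myh7 (716 CPM) were below both (at least 1209 and 2373 CPM). It was 9744 CPM in DMSO, 16538 CPM in the other rosiglitazone library of 0.5 h and 1842 CPM in 48 h replicate 2. In bulk RNA, fewer cells of a type and less RNA per cell cannot be told apart.

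Across the course, Dgat1 rose about 2-fold between the 0.5 h libraries and the later ones, and no other member passed the test in any comparison. Gpam, at the entry to triglyceride synthesis, lay lower in all 4 later libraries without passing it. Acly, Acaca, Fasn and Dgat2 had late levels that overlapped those at 0.5 h. Acacb varied the most among libraries, and Elovl6 had no counts.

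**Figure D1:**
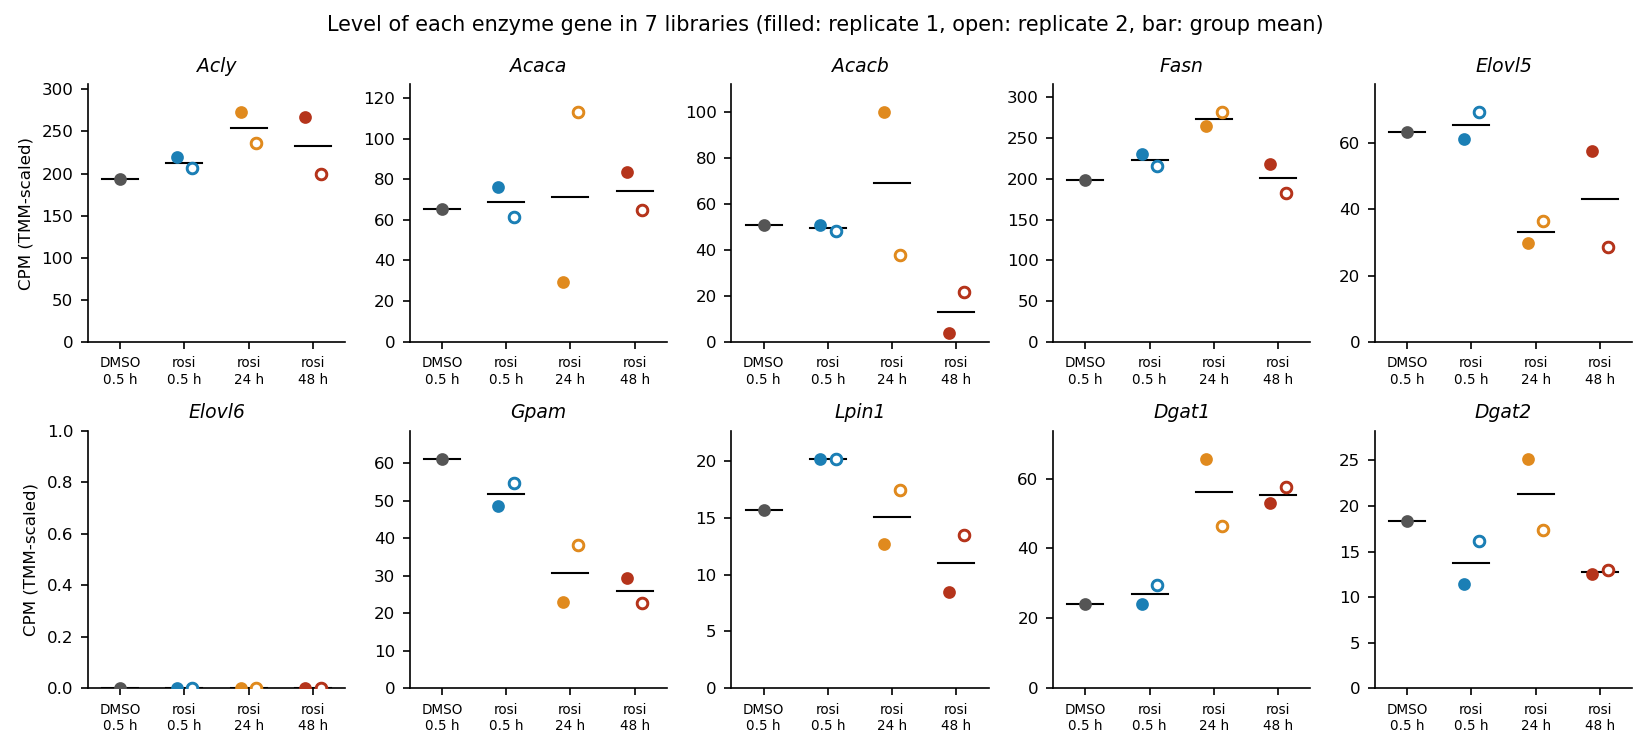
Level of each member in CPM (TMM-scaled, linear axis from 0) in the 7 libraries, with filled circles for replicate 1, open circles for replicate 2 and bars for group means. Dgat1 is at 46.3 CPM or more in all 4 later libraries and at 29.5 CPM or less in the 0.5 h libraries, and Gpam lies the other way round.

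Acly, which cleaves citrate to cytosolic acetyl-CoA, was at 194 CPM in DMSO and at 220 and 206 CPM in the rosiglitazone libraries of 0.5 h. It was at 273 and 236 CPM at 24 h and at 267 and 199 CPM at 48 h. Both 24 h libraries were above every 0.5 h library, while 48 h replicate 2 fell among them. Changes are given as log2 fold changes with their standard error from edgeR's quasi-likelihood test, and p-values are adjusted over all 15655 genes by the Benjamini-Hochberg method with a threshold of 0.05. For the 24 and 48 h libraries against all 0.5 h libraries, DMSO included, Acly differed by 0.24 ± 0.20 (adjusted p = 0.484). The 95% interval, -0.24 to 0.72, leaves room for small changes in either direction.

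Acaca encodes the acetyl-CoA carboxylase whose malonyl-CoA feeds fatty acid synthesis in the cytosol. Its level was 65.3 CPM in DMSO and 76.3 and 61.3 CPM with rosiglitazone at 0.5 h. At 24 h replicate 1 held 29.2 CPM, the lowest of all libraries, and replicate 2 held 113 CPM, the highest. At 48 h the values were 83.6 and 64.9 CPM. The 2 libraries of 24 h thus lay 3.86-fold apart, a gap that 17.6% of tested genes exceeded in the same pair. The late difference was 0.10 ± 0.43 (adjusted p = 0.924), and for 24 h against 0.5 h it was 0.05 ± 0.56 (adjusted p = 0.98). The latter became 0.71 without replicate 1 of 24 h and -1.25 without replicate 2.

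Acacb encodes the carboxylase at the mitochondrial outer membrane, whose malonyl-CoA restrains fatty acid import, and it is the form typical of heart and skeletal muscle. It was at 50.6 CPM in DMSO and at 50.7 and 48.2 CPM with rosiglitazone at 0.5 h, values that lay close together. At 24 h it was at 99.9 and 37.8 CPM, and at 48 h at 3.92 and 21.8 CPM. Both 48 h libraries were below every other library, and 48 h replicate 1 was 25.5 times lower than 24 h replicate 1. The change from 24 to 48 h was -2.44 ± 0.79 (adjusted p = 0.427) and that from 0.5 to 48 h was -1.97 ± 0.78 (adjusted p = 0.183). DESeq2's Wald test put both under the threshold (adjusted p = 0.0358 and 0.0478). Without replicate 1 of 48 h the change from 24 to 48 h was -1.68 in edgeR, and without replicate 2 it was -4.13, neither past the threshold (adjusted p = 0.943 and 0.185). The change from 0.5 to 48 h was likewise -1.22 without replicate 1 of 48 h and -3.66 without replicate 2 (adjusted p = 0.409 and 0.0647).

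Among the later libraries, Acacb stood in the same order as the summed heart muscle markers, which were 14495 and 3370 CPM at 24 h and 411 and 1842 CPM at 48 h. Their part in the result was not tested. Fibroblast markers, 9 with an entry of 10, summed to 50097 to 51637 CPM at 0.5 h, 32629 to 35053 CPM at 24 h and 17357 to 33642 CPM at 48 h. Most of this sum at 0.5 h was Col1a1 and Col3a1, with means of 27216 and 18569 CPM with rosiglitazone. Dcn went the other way, from a mean of 901 CPM there to 1934 CPM at 24 h and 6513 CPM at 48 h. From 0.5 to 48 h, 3 of the 9 had a positive log2 fold change. Dgat2, at 25.2 and 17.4 CPM at 24 h and 12.5 and 13 CPM at 48 h, also stood in the order of the heart muscle markers, and the other 7 tested members did not.

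**Figure D2:**
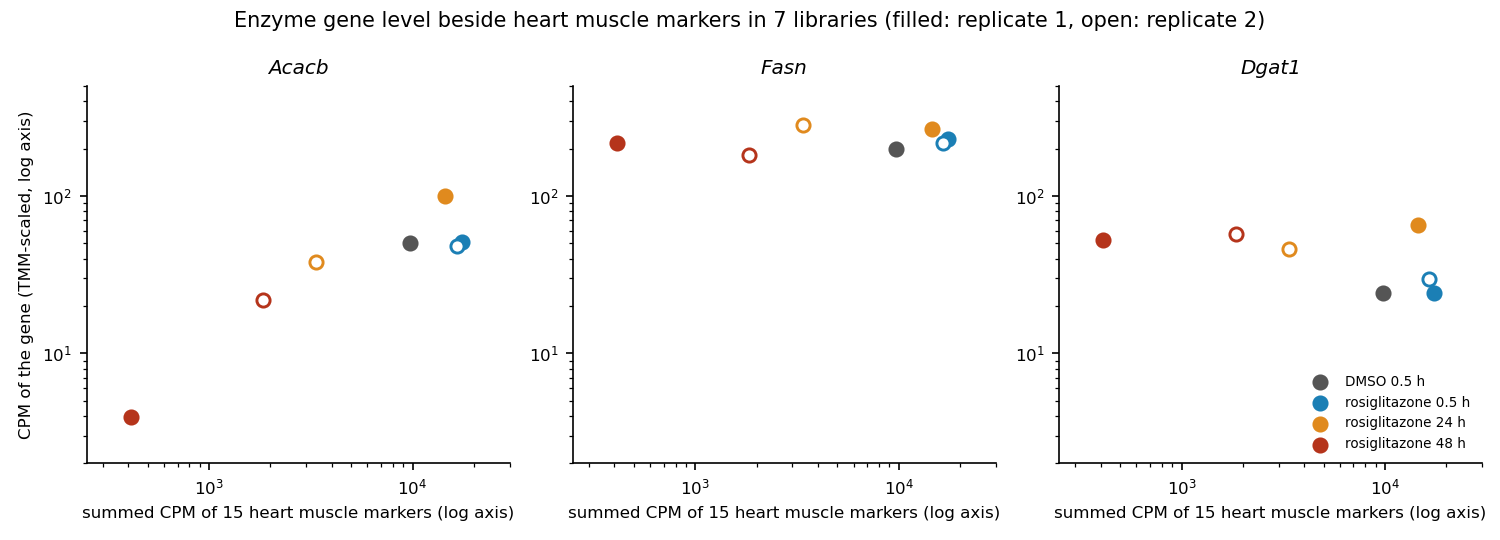
Level of Acacb, Fasn and Dgat1 (CPM, log axis) against the summed CPM of 15 heart muscle markers (log axis) in the 7 libraries, coloured by group, with open circles for replicate 2. Acacb falls to 3.92 CPM in the library with 411 CPM of heart markers, while Fasn stays between 183 and 282 CPM in all libraries.

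Fasn, the multienzyme that makes palmitate from malonyl-CoA, varied by 1.54-fold over all 7 libraries. It was at 199 CPM in DMSO, at 231 and 216 CPM with rosiglitazone at 0.5 h, at 265 and 282 CPM at 24 h, and at 218 and 183 CPM at 48 h. The 24 h libraries were the 2 highest and 48 h replicate 2 was the lowest. From 0.5 to 24 h the difference was 0.29 ± 0.25 (adjusted p = 0.588), and from 24 to 48 h it was -0.45 ± 0.25 (adjusted p = 0.726). For the late libraries together it was 0.12 ± 0.19, with a 95% interval of -0.32 to 0.57 (adjusted p = 0.719). The estimate for Dgat1, 1.10, lies outside that interval, but the interval of Dgat1, 0.55 to 1.66, overlaps it. Whether Fasn and Dgat1 differed in their change was not tested.

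Elovl5 extends polyunsaturated fatty acids. Its level was 63.3 CPM in DMSO, 61.4 and 69.4 CPM with rosiglitazone at 0.5 h, 29.9 and 36.4 CPM at 24 h, and 57.5 and 28.7 CPM at 48 h. All 4 later libraries lay below the lowest 0.5 h library, but replicate 1 of 48 h came close to it. The change was -0.98 ± 0.37 from 0.5 to 24 h (adjusted p = 0.274) and -0.77 ± 0.28 for the late libraries (adjusted p = 0.122), so neither passed. The 48 h libraries were 2-fold apart, a gap wider in 24.9% of tested genes.

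Elovl6, the elongase of palmitate, had 0 counts in all 7 libraries. A count of 0 allows up to 3 counts, which is 0.106 CPM in the deepest libraries and 0.279 CPM in the shallowest. This limit covers counting error only, because reads were not tagged by molecule. Another entry of the tables, LOC102549542, shares the human homolog of Elovl6 at the same 95.88% identity, and it held 1 count in all libraries. Where reads match near-identical copies they may not be counted, so the level of Elovl6 is uncertain. No other member shared its human homolog with another entry.

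Gpam encodes the mitochondrial enzyme that puts the first acyl chain on glycerol phosphate. Its level was 61.2 CPM in DMSO and 48.5 and 54.8 CPM with rosiglitazone at 0.5 h, against 23 and 38.3 CPM at 24 h and 29.3 and 22.6 CPM at 48 h. Every later library was below every 0.5 h library. The late difference was -0.95 ± 0.26, which is 1.94-fold lower, with a 95% interval of -1.56 to -0.35, and its adjusted p of 0.056 in edgeR missed the threshold. It passed in DESeq2's Wald test (adjusted p = 0.0139), without a filter on low counts (0.0347), with a mean of at least 5 CPM (0.047), and with the libraries as 2 groups (0.0283). It also passed without 24 h replicate 1 (0.0183) or replicate 2 (0.00711). It missed the threshold without any of the other 5 libraries (adjusted p of 0.108 to 0.201), with DESeq2's size factors (0.0569) and with the replicate block (0.12). Its size stayed within -1.15 to -0.86 whichever library was left out. The change from 0.5 to 48 h was -0.99 ± 0.35 (adjusted p = 0.139), and that from 0.5 to 24 h was -0.75 ± 0.34 (adjusted p = 0.344).

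Lpin1 encodes a phosphatidate phosphatase, which yields diacylglycerol and also acts in the nucleus as a coactivator. It was at 15.7 CPM in DMSO, at 20.2 CPM in both rosiglitazone libraries of 0.5 h, at 12.7 and 17.4 CPM at 24 h, and at 8.45 and 13.5 CPM at 48 h. The late libraries overlapped DMSO, and both 48 h libraries lay below all 0.5 h libraries. The differences were -0.53 ± 0.31 for the late libraries (adjusted p = 0.296) and -0.88 ± 0.41 for 48 h against 0.5 h rosiglitazone (adjusted p = 0.249).

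Dgat1 and Dgat2 encode unrelated enzymes that both add the last acyl chain of a triglyceride. Dgat1 was at 24.1 CPM in DMSO and at 24.2 and 29.5 CPM with rosiglitazone at 0.5 h. It was at 65.7 and 46.3 CPM at 24 h and at 52.9 and 57.6 CPM at 48 h. The lowest later library was above the highest 0.5 h library. The late difference was 1.10 ± 0.24, a 2.15-fold rise with a 95% interval of 0.55 to 1.66, and it passed the test (adjusted p = 0.0283). By time, the differences were 1.06 ± 0.31 from 0.5 to 24 h (adjusted p = 0.169), 1.04 ± 0.31 from 0.5 to 48 h (adjusted p = 0.0916) and -0.02 ± 0.30 from 24 to 48 h (adjusted p = 1).

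The size of the Dgat1 rise stayed between 1.01 and 1.20 whichever library was left out, but the call did not. Its adjusted p in edgeR was 0.0633 without DMSO, 0.17 and 0.115 without replicates 1 and 2 of 0.5 h rosiglitazone, and 0.074 and 0.0757 without replicates 1 and 2 of 48 h. It was 0.01 and 0.00596 without replicates 1 and 2 of 24 h. DESeq2's Wald test gave 0.000758 with all libraries.

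Dgat2 was at 18.3 CPM in DMSO, at 11.4 and 16.2 CPM with rosiglitazone at 0.5 h, at 25.2 and 17.4 CPM at 24 h, and at 12.5 and 13 CPM at 48 h. The late libraries lay on both sides of those at 0.5 h. Dgat2 differed by 0.63 ± 0.39 from 0.5 to 24 h (adjusted p = 0.466), by -0.74 ± 0.39 from 24 to 48 h (adjusted p = 0.709), and by 0.12 ± 0.30 for the late libraries (adjusted p = 0.843). Whether Dgat1 and Dgat2 differed in their change was not tested.

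**Figure D3:**
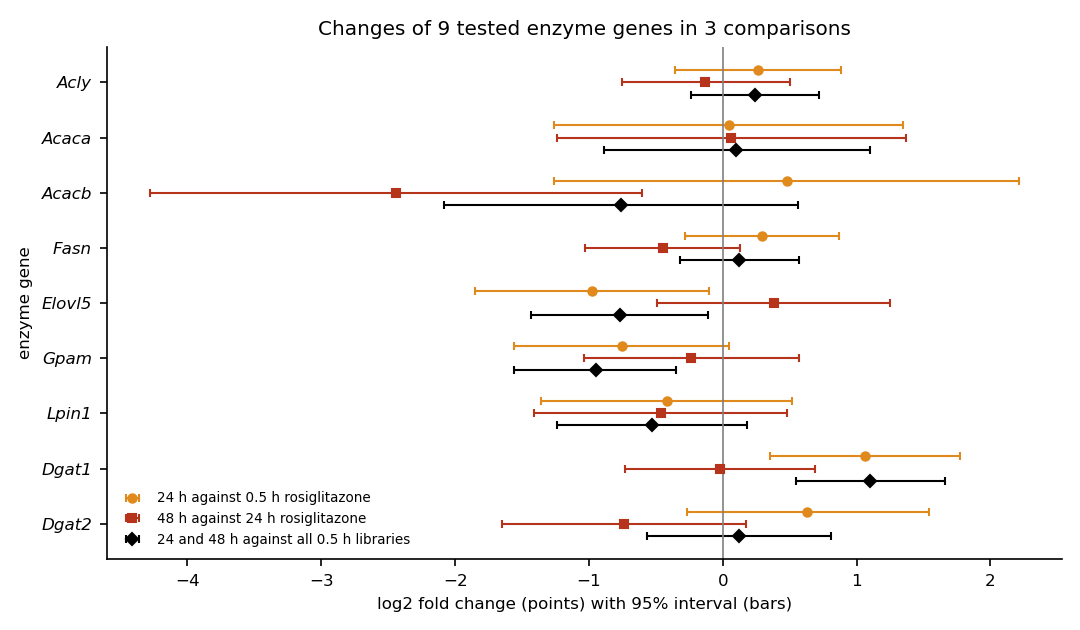
Log2 fold change (points) with its 95% interval (bars) for the 9 tested members in 3 comparisons, which share libraries. Dgat1 has a late interval of 0.55 to 1.66 and Gpam one of -1.56 to -0.35, while the late interval of Fasn spans 0.

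Rosiglitazone against DMSO at 0.5 h called no member and 0% of the 15655 genes in edgeR. At an unadjusted p under 0.05 there were 0 members and 95 genes (0.607%), and DESeq2's Wald test called 0 members and 2 genes (0.0128%). The member with the largest difference was Dgat2, at -0.41 ± 0.47 (adjusted p = 1). For Dgat1 the difference was 0.16 ± 0.37 and for Fasn 0.17 ± 0.31, both with an adjusted p of 1.

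For 24 h against 0.5 h rosiglitazone 0 of 9 members were called, beside 0.0958% of all genes. There 2 members, Dgat1 and Elovl5, had an unadjusted p under 0.05, beside 15.7% of all genes. DESeq2's Wald test called 1 member, Dgat1 (adjusted p = 0.0426), beside 8.14% of the genes it gave an adjusted p. For 48 h against 24 h, 0 members and 0% of genes were called, 1 member (Acacb) and 1274 genes (8.14%) had an unadjusted p under 0.05, and DESeq2 called Acacb and 492 genes in all (3.48%). For 48 h against 0.5 h, 0 members were called beside 6.59% of genes. Dgat1, Gpam and Acacb had an unadjusted p under 0.05 there, beside 22.9% of genes, and DESeq2 called Dgat1 (adjusted p = 0.0292) and Acacb, beside 17.5%.

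For the late libraries against all 0.5 h libraries, 1 of 9 members was called, beside 11.4% of all genes. It was called higher, as were 4.11% of genes. The late and 0.5 h libraries did not overlap for 1 member that was higher, beside 14.2% of genes, and for 2 that were lower, Gpam and Elovl5, beside 19.5%. These shares are near the background. The median log2 fold change of the 9 members was 0.10, and that of all genes tested was -0.07. The comparisons share libraries, so they are not independent of each other.

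In the authors' deposited table more members were under 0.05 than in the fit above, as were more genes overall: 39% of 15984 genes from 0.5 to 24 h and 16.5% of 14905 from 24 to 48 h. From 0.5 to 24 h the authors' deposited table gave Dgat1 a log2 fold change of 1.06 (adjusted p = 4.376e-08) and Elovl5 one of -0.945 (adjusted p = 1.197e-10). For the same step the authors' deposited table also listed Gpam at -0.706, Dgat2 at 0.628, Fasn at 0.314 and Acly at 0.276, each with an adjusted p under 0.05. From 24 to 48 h the authors' deposited table listed Acacb at -1.77 (adjusted p = 0.00233), Fasn at -0.453 and Dgat2 at -0.725 under 0.05, and for rosiglitazone against DMSO it listed no member there, beside 1677 of 15203 genes (11%). How the authors treated the splits is not given in the sources used here. With the splits as separate replicates, edgeR called 5 members from 0.5 to 24 h, beside 5629 of the 14481 genes tested in that fit. These 5 were Dgat1, Dgat2, Elovl5, Fasn and Gpam. From 24 to 48 h that fit called 3, Acacb, Dgat2 and Fasn, beside 2890 genes. For rosiglitazone against DMSO it called 0 members and 78 genes. In the late comparison, for which the authors gave no values, it called 5 members beside 54.8% of genes.

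Other genes of the pathway were read from 6 lists with 107 entries, of which 103 had an entry in the tables and 97 were tested. In the late comparison 12 passed higher and 6 lower, beside the 11.4% of all genes called, and their median log2 fold change was 0.09. From 0.5 to 48 h 10 passed higher and 5 lower, beside 6.59% of all genes. In edgeR 0 of the 97 passed in the other comparisons, where 0 (rosiglitazone against DMSO), 23 (24 h against 0.5 h) and 16 (48 h against 24 h) had an unadjusted p under 0.05, beside 0.607%, 15.7% and 8.14% of all genes. DESeq2's Wald test called 0, 9 and 5 of the pathway genes there, beside 0.0128%, 8.14% and 3.48% of the genes to which it gave an adjusted p. It called 29 from 0.5 to 48 h beside 17.5%, and 32 in the late comparison beside 22.6%. Leaving out a library often ended these calls: of the 18 late ones, 10 stood without DMSO, 2 and 3 without replicates 1 and 2 of 0.5 h rosiglitazone, 4 and 5 without replicates 1 and 2 of 48 h, and all 18 without either 24 h library. Gpat3 and Taldo1 were the 2 that passed in all 7 of these fits.

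Gpam has sister enzymes that use the same substrate in the endoplasmic reticulum, Gpat3 and Gpat4, and both rose. Whether their change differed from that of Gpam was not tested. Gpat3, known from fat tissue, was at 15.7 CPM in DMSO, at 9.76 and 10.4 CPM with rosiglitazone at 0.5 h, at 64.3 and 228 CPM at 24 h, and at 139 and 144 CPM at 48 h. Every later library was above every 0.5 h library. Its late rise was 3.62 ± 0.46, or 12.3-fold (adjusted p = 0.0067), and it ranged from 3.20 to 3.85 over fits without 1 library, with adjusted p from 4.74e-05 to 0.0418. Gpat4 was at 136, 116 and 131 CPM in the 0.5 h libraries, DMSO first, at 200 and 241 CPM at 24 h and at 245 and 259 CPM at 48 h. It rose by 0.89 ± 0.19 (adjusted p = 0.0294), a call that stood in 3 of the 7 fits without a library, with adjusted p of up to 0.215.

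**Figure D4:**
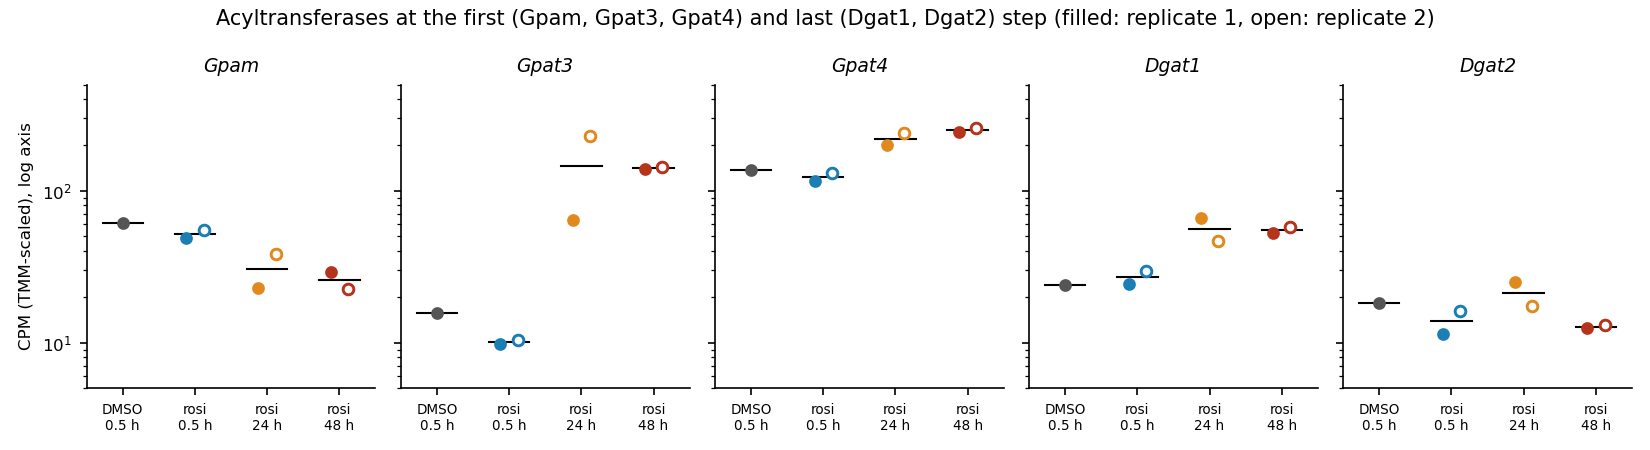
Level (CPM, log axis) in the 7 libraries of the acyltransferases at the first step, Gpam, Gpat3 and Gpat4, and at the last, Dgat1 and Dgat2, with open circles for replicate 2 and bars for group means. Gpat3 goes from at most 15.7 CPM at 0.5 h to at least 64.3 CPM later, while Gpam goes from at least 48.5 CPM to at most 38.3 CPM.

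In the glycerolipid list as a whole, 21 genes were tested, with a median of 0.02. Of these, 3 passed higher and 1 lower, beside 11.4% of all genes called. Lpcat3, which puts polyunsaturated chains into phospholipids, was the third that passed higher, at 0.98 ± 0.20 (adjusted p = 0.0228). Fitm1, a muscle protein that promotes lipid droplet formation, fell (adjusted p = 0.0347): it was at 3.64 CPM in DMSO, 3.52 and 7.85 CPM with rosiglitazone at 0.5 h, and 5.81 and 1.17 CPM at 24 h. Both 48 h libraries had 0 counts. Against 3 counts in the shallower library, 48 h was at least 20.4-fold lower than the mean of 0.5 h rosiglitazone (5.69 CPM). The sister genes of Lpin1 did not pass in edgeR: Lpin2 differed by 0.45 ± 0.24 (adjusted p = 0.257) and Lpin3 by -1.33 ± 0.41 (adjusted p = 0.0819). DESeq2's Wald test called Lpin3 and not Lpin2.

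Of 15 genes for carbon and NADPH supply, with a median of -0.11, 2 passed higher and 2 lower, beside 11.4% of all genes called. Both that passed higher are enzymes of the non-oxidative pentose phosphate pathway. Taldo1 was at 143 CPM in DMSO, 102 and 150 CPM with rosiglitazone at 0.5 h, 448 and 619 CPM at 24 h and 685 and 894 CPM at 48 h, a rise of 2.30 ± 0.27 (adjusted p = 0.00539). Tkt rose by 1.26 ± 0.22 (adjusted p = 0.0141). Me3, a mitochondrial malic enzyme, fell by 3.18 on the log2 scale (SE 0.65, adjusted p = 0.0248). Leaving out 1 library at a time moved it between -2.31 (without 48 h replicate 2) and -4.29 (without 24 h replicate 1), and it passed in 3 of these 7 fits (adjusted p of 0.00109 to 0.098). Pdha1, a subunit of pyruvate dehydrogenase, fell by 0.79 (SE 0.19, adjusted p = 0.0381).

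Genes closer to Acly in function did not pass in the late comparison in edgeR. Slc25a1, which exports citrate from mitochondria, differed by 0.72 ± 0.31 (adjusted p = 0.176) and the cytosolic malic enzyme Me1 by 0.43 ± 0.22 (adjusted p = 0.232). Acss2, which makes acetyl-CoA from acetate, differed by -0.81 ± 0.44 (adjusted p = 0.267). From 0.5 to 48 h DESeq2's Wald test called Acss2. Like Acacb, Acss2 was higher in replicate 1 of 24 h, at 66.7 CPM, than in replicate 2, at 20.5 CPM, and it was lowest in replicate 1 of 48 h, at 7.39 CPM.

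Beside 11.4% of all genes called, 1 of 17 genes for elongation and desaturation passed higher and 2 lower. The median was -0.51, or -0.37 with genes at 0 in both 48 h libraries set at 3 counts and 1 gene under that limit throughout left out. Hacd3 and Hacd4 encode dehydratases of the elongation cycle; Hacd3 rose by 0.94 ± 0.20 (adjusted p = 0.0269), and Hacd4 fell by 3.34 (SE 0.70, adjusted p = 0.0261). With 1 library left out, Hacd4 lay between -2.76 (without 48 h replicate 2) and -4.13 (without 24 h replicate 1) and passed in 2 of 7 fits (adjusted p of 0.00209 to 0.11). Fads3, of the fatty acid desaturase family, fell by 0.85 (SE 0.21, adjusted p = 0.0404). The stearoyl-CoA desaturases Scd and Scd2, which make monounsaturated fatty acids, lay higher in all 4 later libraries without passing in edgeR. Scd differed by 1.54 ± 0.45 (adjusted p = 0.0672) and Scd2 by 1.05 ± 0.30 (adjusted p = 0.0669). DESeq2's Wald test called both. Scd4, of the same family, was not tested: it held 8 and 4 counts in the 0.5 h rosiglitazone libraries and 0 counts in DMSO and in all 4 later libraries.

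Scd was at 20.8 CPM in DMSO, 42.4 and 39.2 CPM with rosiglitazone at 0.5 h, 164 and 46.7 CPM at 24 h, and 110 and 61.6 CPM at 48 h. Its 24 h libraries were thus far apart, with replicate 2 close to the 0.5 h level.

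Of 8 acyl-CoA synthetases, which activate fatty acids, 0 passed in the late comparison in edgeR (2 had an unadjusted p under 0.05, beside 28.6% of all genes, and DESeq2 called 2, Acsl3 and Acsl4), and the median was 0.23. Acsl4 differed by 1.00 ± 0.28 (adjusted p = 0.0622) and Acsl3 by 0.73 ± 0.25 (adjusted p = 0.1). From 0.5 to 48 h Acsl4 passed, with a rise of 1.59 ± 0.37 (adjusted p = 0.0477). Acsl1 rose and then fell, which the late comparison averages. It was at 165 CPM in DMSO and at 151 and 171 CPM with rosiglitazone at 0.5 h. At 24 h it was at 561 and 282 CPM, and at 48 h at 67 and 126 CPM. DESeq2's Wald test called Acsl1 from 0.5 to 24 h and from 24 to 48 h, and edgeR in neither. Of 9 genes for fatty acid synthesis inside mitochondria, 2 were called higher and 0 lower, beside 11.4% of all genes called. The log2 fold change was positive for 6 of these 9, with a median of 0.40. Those called higher were Hsd17b8, at 1.26 ± 0.27 (adjusted p = 0.0263), and the malonyl transferase Mcat, at 1.00 ± 0.26 (adjusted p = 0.0482).

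Of 27 regulators of lipogenesis, 4 were called higher and 1 lower, beside 11.4% of all genes called. The log2 fold change was positive for 16 of the 27, with a median of 0.11. Srebf1 encodes the transcription factor that switches on Fasn, Acaca and other lipogenic genes. It was at 38.7 CPM in DMSO, 41.8 and 37.8 CPM with rosiglitazone at 0.5 h, 69.4 and 70.1 CPM at 24 h and 62 and 71.3 CPM at 48 h, a rise of 0.79 ± 0.20 (adjusted p = 0.0472). The late libraries did not overlap those at 0.5 h, but the call stood in 2 of the 7 fits without a library, with adjusted p of up to 0.238. Scap, which escorts SREBP to its activation, rose by 0.89 ± 0.19 (adjusted p = 0.0254), and Nr1h2, a liver X receptor, by 0.93 ± 0.24 (adjusted p = 0.0485).

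Trib3, a pseudokinase that has been tied to the turnover of acetyl-CoA carboxylase, rose by 2.03 ± 0.29 (adjusted p = 0.00847). Ppargc1a, a coactivator of oxidative metabolism, fell by 2.66 (SE 0.40, adjusted p = 0.00999). It was at 12.4, 14.5 and 20.7 CPM in the 0.5 h libraries, DMSO first, at 4.24 and 2.26 CPM at 24 h and at 1.9 and 1.86 CPM at 48 h. Insig1, an SREBP target, differed by 0.85 ± 0.26 (adjusted p = 0.0728 in edgeR), and DESeq2's Wald test called it. Cebpa passed from 0.5 to 48 h, with a rise of 1.62 ± 0.38 (adjusted p = 0.0484).

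Pparg, the receptor that rosiglitazone binds, was at 1.31 to 2.47 CPM at 0.5 h and at 1.58 to 5.03 CPM later, a difference of 0.75 ± 0.65 (adjusted p = 0.495). Mlxipl, the carbohydrate response factor ChREBP, held 14 counts in all libraries and Thrsp, a lipogenic gene of liver and fat, held 9, and neither was tested.

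**Figure D5:**
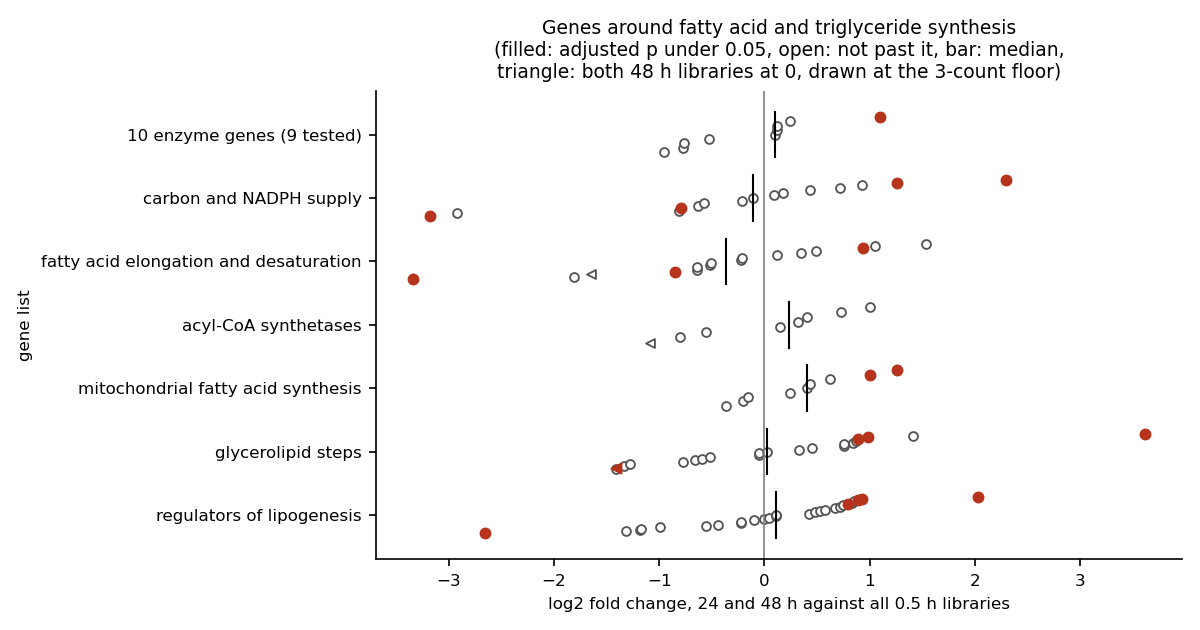
Log2 fold change of the 24 and 48 h libraries against all 0.5 h libraries for the 9 tested members and 6 lists of pathway genes, with filled symbols for an adjusted p under 0.05 and bars for medians. Genes at 0 in both 48 h libraries are triangles at the 3-count limit, and 1 gene under that limit throughout is not drawn. Gpat3 lies highest, at 3.62, and the medians lie between -0.37 and 0.40.

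Genes whose levels followed those of a member most closely were sought for Acacb and Gpam, the 2 members with the widest range of group means. Over the 7 libraries and among 10499 genes, Acacb was most like Cd244 (Pearson's r = 0.986), Tnni1 (r = 0.985) and Clip4 (r = 0.984). Tnni1, the slow skeletal troponin I of the immature heart, was at 1003 CPM in 24 h replicate 1 and 22.1 CPM in 48 h replicate 1. Gpam was most like Tm4sf19 (r = 0.995), Madd (r = 0.992) and Zfp365 (r = 0.989). Among the members themselves, Gpam and Dgat1 went opposite ways (r = -0.95) and Gpam and Elovl5 together (r = 0.83). All these values share the 7 libraries and their depth, are given as a description and were chosen as the highest of many.

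Markers of cells that a heart culture can hold were read beside these genes, and their part in the results was not tested. In the late comparison 9 of 15 heart muscle markers were called lower, beside 1142 of all 15655 genes tested. So were 5 of 10 macrophage, 5 of 8 endothelial, 5 of 8 smooth muscle and pericyte, and 3 of 7 epicardial markers. The rest of these markers also had negative log2 fold changes, except 1 macrophage marker. Of 9 fibroblast markers 1 was called higher and 2 lower, and 3 had a positive log2 fold change. Macrophage markers summed to 948 CPM in DMSO and to 168 to 452 CPM in the other libraries. Of this sum, Lyz2 held 339 CPM in 24 h replicate 1 and 283 CPM in 48 h replicate 2. Csf1r had means of 35.6 CPM with rosiglitazone at 0.5 h, 14.9 CPM at 24 h and 8.81 CPM at 48 h. For rosiglitazone against DMSO at 0.5 h, 0 of the 10 macrophage markers had a positive log2 fold change (median -1.61). In edgeR 0 were called there, and 5 had an unadjusted p under 0.05, beside 0.607% of all genes. With rosiglitazone from 0.5 to 48 h, 3 of the 10 were called lower, beside 6.59% of all genes called. There 4 of the 10 had a positive log2 fold change. Adipocyte markers summed to 42.4 to 87.3 CPM at 0.5 h and to 21.9 to 82.6 CPM later, and 0 of the 5 that could be tested were called in edgeR (0 with an unadjusted p under 0.05, and 0 by DESeq2). Ucp1 and Adig were at 0 in every library, Adipoq held 1 count and Cidec 2 counts in all, and most of the sum came from Fabp4 and Cidea.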

How the data were processed

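RNA was sequenced from 14 samples, which are 7 libraries given as 2 splits each. Per the labels' protocols, a directional library kit was used. Tools named in the submitters' processing notes are HTSeq, DESeq2, cutadapt 1.11 and FastQC 0.11.5, and the builds are Rnor_6.0 and hg19, with no role or order. The sources used here do not give the aligner or whether counting used strand, so reads of overlapping or antisense genes may not be separated. The title of the series names mice, but the gene IDs are from rat.

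The 3 deposited tables hold raw counts per gene and split, which the authors made. Per the file headers they also hold the authors' log2 fold changes and p-values, which were used only where the text names the authors' deposited table. The tables list 33005 entries for 32545 genes, each used once, and the 4 libraries present in 2 tables had equal counts.

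Counts were tested with edgeR 4.0.16 (R 4.3.3; TMM scaling, filterByExpr, robust quasi-likelihood test, 4 groups in 1 fit). Residual degrees of freedom were 3, prior ones 4.46 (median), and the common BCV was 0.514. Benjamini-Hochberg adjustment ran over 15655 genes, with a threshold of 0.05. The late comparison weights each library equally. Standard errors come from the F statistic, and intervals of 95% use its degrees of freedom. The code was tested on simulated counts. Of 50 genes given a 2-fold change there, the late comparison called 6 and the other comparisons 0 to 3. Of 50 given a 4-fold change, the late comparison called 36. Changes of about 2-fold were thus mostly missed in these simulated counts. In place of an SD over 2 libraries, both values are given.

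The members, the lists of pathway genes and markers and the tests were chosen with earlier results of these data known. All members are named. Of the pathway genes, those past the threshold in any comparison in edgeR and a set of 16 genes are named. The 2 with the smallest p of each list in the late comparison (mean of at least 1 CPM) are named too. Acsl1 and Scd4 were added to these. Genes most like a member were ranked by Pearson correlation of log2 CPM (prior count 2) among tested genes with a mean of at least 5 CPM. No transcript lengths, coordinates or sequences were used here. As alternatives, each library was left out in turn, the replicate number was a block, the splits were replicates, the fit held 2 groups or only those compared, the filter was dropped or set at a mean of 5 CPM, and DESeq2 1.42.0 gave the size factors or the test.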

Additional observations from a re-analysis of the deposited data

How the results depend on the processing

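In these fits 24 and 48 h libraries were compared with all 0.5 h libraries (the late comparison) or times with each other. The late comparison called 1 member; it called 2 without a filter, with a mean of at least 5 CPM, with 2 groups and by DESeq2's Wald test (Dgat1 and Gpam each time), and 5 with splits as replicates, which treats sampling noise as replicate spread. From 0.5 to 24 h no member was called; 5 were with splits as replicates and 1 by DESeq2. From 24 to 48 h no member was called; 3 were with splits and 1 by DESeq2. From 0.5 to 48 h no member was called; 5 were with splits, 2 with only the groups compared and 2 by DESeq2. Leaving out 1 library gave 0 to 2 members in the late comparison and from 0.5 to 48 h, and 0 in the others.

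Over all genes the late comparison called 1786; it called 7936 with splits and 3337 by DESeq2. From 0.5 to 48 h there were 1031 calls, against 6943 with splits, 2733 with only the groups compared and 2526 by DESeq2. From 0.5 to 24 h there were 15, against 334 without a filter, 5629 with splits, 0 with only the groups compared and 1200 by DESeq2. From 24 to 48 h there were 0, against 19 without a filter, 2890 with splits and 492 by DESeq2. Rosiglitazone against DMSO had 0, against 1 without a filter, 78 with splits, 174 with only the groups compared and 2 by DESeq2. Leaving out 1 library gave 288 to 3965 calls (late), 12 to 2706 (0.5 to 48 h), 0 to 1008 (0.5 to 24 h), 0 to 509 (24 to 48 h) and 0 (against DMSO). Where a count moved, the cause was not tested.

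Differences of replicate 1 minus 2 correlated at -0.08, 0.06 and -0.12 between groups, so no pairing by replicate number was seen. A pairing is not excluded, because other differences between the libraries could hide it. With the replicate number as a block, the calls were 785 (late), 407 (0.5 to 48 h) and 1 (0.5 to 24 h), and the late comparison called 0 members, with Dgat1 at an adjusted p of 0.0816 and 6 of the 18 pathway calls standing. The block also turned the sign of Acaca, to -0.02 (late), -0.09 (0.5 to 24 h) and -0.08 (against DMSO).

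Leaving out 1 library turned the sign of small differences, none of which passed the test. The ranges were, for Acaca, -0.34 to 0.34 (late), -1.25 to 0.71 (0.5 to 24 h), -0.12 to 0.28 (0.5 to 48 h), -0.59 to 1.33 (24 to 48 h) and -0.09 to 0.23 (against DMSO). For Acacb they were -0.39 to 1.00 (0.5 to 24 h) and -0.07 to 0.00 (against DMSO), and for Acly -0.13 to 0.33 (0.5 to 48 h) and -0.37 to 0.07 (24 to 48 h). For Dgat1 and Gpam they were -0.26 to 0.26 and -0.55 to 0.17 (24 to 48 h). For Dgat2 they were -0.10 to 0.28 (late) and -0.36 to 0.16 (0.5 to 48 h), and for Elovl5 -0.23 to 0.79 (24 to 48 h) and -0.04 to 0.13 (against DMSO). Of the values of single genes under all alternatives, 844 kept their direction and their side of the threshold, 68 newly passed, 90 no longer passed and 23 changed sign.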
